A study of Homo sapiens with 4 samples.

Results

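Gene expression was compared between 2 monocytic lines of human acute myeloid leukemia, THP-1 and MonoMac-1, and 2 lines that are not monocytic, HL60 and KG1a. RNA of each line was sequenced once, so the series holds 4 libraries and no line has a replicate. THP-1 and MonoMac-1 carry MLL-AF9, a fusion of the genes KMT2A and MLLT3, whereas HL60 is myeloblastic to promyelocytic and KG1a is CD34-positive and immature. The fusion and the lineage are general knowledge of these lines and are not in the labels. Because both fusion lines are monocytic and neither other line is, fusion, lineage and the particular line cannot be told apart in any value below. All 4 lines grew in the same serum-containing medium, and the labels name no treatment. The title of the THP-1 library has the suffix "tr", which the labels do not explain. Each line is an established culture and stands for 1 leukemia.

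Values are RPKM, the abundance of a transcript scaled to gene length and to the library total, as the authors deposited them. Of 21865 symbols, 12976 had 1 RPKM or more in some line, and these are the measured genes. Comparisons used log2(RPKM + 1), which understates differences of weakly expressed genes. The gap of a gene is the lower value of one pair of lines minus the higher value of the other pair. A gene was called when the gap was at least 2 on the log2 scale, which is 4-fold, and it was counted as higher or lower by any margin when the pairs did not overlap. The pair difference is the mean of THP-1 and MonoMac-1 minus the mean of HL60 and KG1a. Where 4 values of a gene are given without line names, they are RPKM in THP-1 and MonoMac-1, in that order, against HL60 and KG1a, in that order, and a gene written as 0 is listed at 0 in the files.

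Monocytes are phagocytes. They take up particles through surface receptors, break them down in acidified lysosomes with cathepsins and glycosidases, present fragments on HLA class II molecules, and remodel the matrix they crawl through with surface proteases. Myeloblasts and promyelocytes build granules with proteases and peroxidase, and CD34-positive progenitors keep stem cell and some lymphoid genes switched on. Fast-growing blasts also need a steady supply of amino acids and charged tRNA for protein synthesis.

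The 4 libraries held 6.04 to 13.6 gigabases on genes, and 10569 to 11346 genes reached 1 RPKM. At 1 RPKM a gene rested on a median of 209 to 390 reads if a read is 100 bases long. That length was inferred from low gene totals, in bases, that are multiples of 100, which made up 41.7% to 47.0% in 3 libraries but 10.1% in MonoMac-1, so the upper figure, from MonoMac-1, is less certain. Either way counting error is small beside the 4-fold rule, and the missing replicates set the limit. Of 15 monocyte markers 4 were called higher in both monocytic lines (IRF8, LYZ, CD68 and CCR2), 11 were higher by any margin with these included, and CD33, CD4, CD86 and ITGAM did not separate the pairs. CD4 stood at 61.1 and 8.66 against 79.8 and 0.04505 and was highest in HL60. CD14, a defining marker, was low throughout, at 1.28 and 4.13 against 0.0787 and 0.0756. HL60 had MPO at 4610.2 RPKM and CEBPE at 178, both above the other lines. The other measured granulocyte markers, ELANE, AZU1, PRTN3 and CTSG, were higher in both monocytic lines, with CTSG at 1789 and 2410.3 against 119.6 and 19.9. KG1a had CD34 at 494, and GATA2 and ERG were also highest there, but KIT was at 0.00634 in KG1a and 9.06 in THP-1. LTF, CAMP, CEACAM8, PROM1 and MECOM stayed under 1 RPKM in every line. HL60 also carried a low level of nearly all genes abundant in KG1a. Of 98 genes with at least 10 RPKM in KG1a and under 1% of that level in THP-1 and MonoMac-1, 88 lay under 10% of the KG1a level in HL60, and these had a median of 2.66% with 77 between 2% and 4%. Among 533 genes of at least 100 RPKM in KG1a, the lowest HL60 level was 2.49% of KG1a, while the lowest level in each monocytic line was 0. The source of this share was not tested. For lists whose count of lower genes then moved by 1.5 times or more, the count is also given after subtraction of 2.66% of the KG1a value from HL60, below called removal of the KG1a share.

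**Figure D1:**
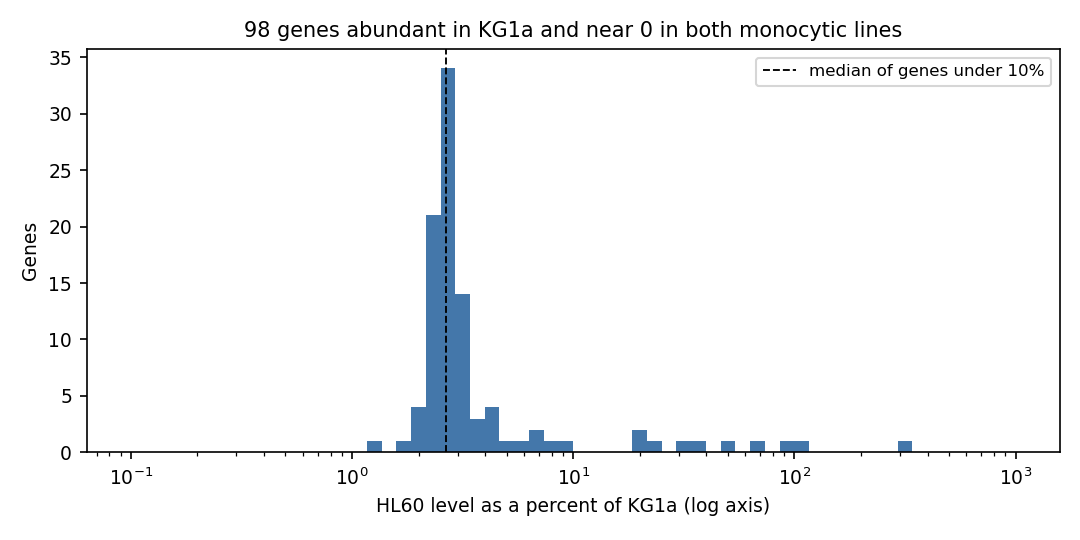
HL60 level as a percent of the KG1a level (log axis) for the 98 genes at 10 RPKM or more in KG1a and under 1% of that in both monocytic lines; bars count genes and the dashed line is the median of the genes under 10%. Most genes pile up in 1 narrow peak around 2.66%, with 77 of them between 2% and 4%.

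By the 4-fold rule 181 genes, 1.39% of those measured, were higher in both monocytic lines and 43, or 0.331%, were lower. By any margin 22.1% were higher and 19.6% lower, and the median pair difference of all genes was 0.02. Quantile normalization of the libraries shifted this balance to 18.2% higher and 24.7% lower, with a median of -0.07, so small list differences depend on the scaling. Leaving out a line cannot shrink the gap of a called gene, so each count can then only stay or rise. Leaving out HL60 gave 560 higher and 486 lower, and leaving out KG1a 317 and 116. Without THP-1 there were 415 and 98, and without MonoMac-1 415 and 104. With only 3 lines the shares by any margin also rise, to between 32.5% and 39.3% higher and between 29.9% and 38.5% lower. After removal of the KG1a share all 181 higher genes and 34 of the 43 lower genes were still called, which is 1.39% and 0.262% of the measured genes, and 22.5% were higher and 17.1% lower by any margin. The 9 lost were CD34, PCDH10, GFI1B, IL32, HOPX, MATK, DYSF, ARHGAP22 and C10orf128.

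The higher and the lower calls differed in where their background level lay. Of the 181 higher genes 104 were under 1 RPKM in HL60 and in KG1a, 47 reached 1 RPKM in HL60 but not in KG1a, 4 in KG1a but not in HL60, and 26 in both. HL60 exceeded KG1a for 136 of the 181. The monocytic lines lay within 2-fold of each other for 120 of these genes and at least 4-fold apart for 22, with a median distance of 0.67 on the log2 scale against 0.41 over all genes. Of the 43 lower genes 28 were under 1 RPKM in both monocytic lines, and KG1a exceeded HL60 for 30. Only 15 of the higher genes reached 100 RPKM in both monocytic lines, and 70 stayed under 10 RPKM in the lower of them. Just inside the rule were KIAA0649 and GPC3 (gaps of 2) on the higher side and ARHGAP22 and KIAA1211 (-2.01 each) on the lower. APOC2 (1.99), GATA2 (-1.99) and TBC1D4 (-1.98), lay just outside.

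**Figure D2:**
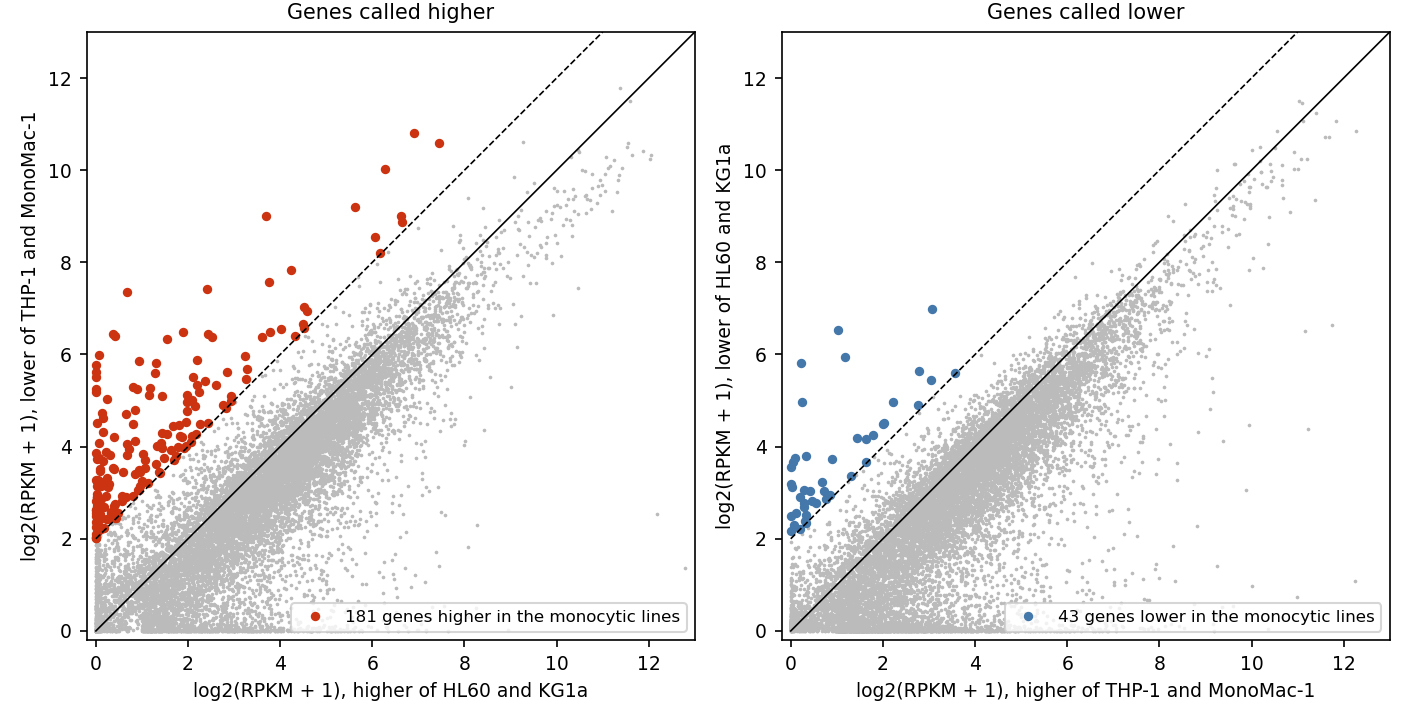
Each point is 1 of 12976 genes on log2(RPKM + 1) axes. Left, the lower monocytic value against the higher of HL60 and KG1a; right, the lower of HL60 and KG1a against the higher monocytic value. The solid line marks equal values and the dashed line a gap of 2; 181 genes lie on or above it on the left and 43 on the right, many of them near 0 on the horizontal axis.

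The 63 gene lists that follow held 1804 measured genes, of which 65 were in more than 1 list. They covered 69 of the 181 higher and 20 of the 43 lower genes. For each list the number of listed and of measured genes is given, because a gene that is low in every line passes the filter only if 1 line raises it. Counts by any margin are to be read beside 22.1% and 19.6%, and counts of called genes beside 1.39% and 0.331%. Counts given without a filter are to be read beside 18.5% higher and 15.7% lower of all symbols.

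**Figure D3:**
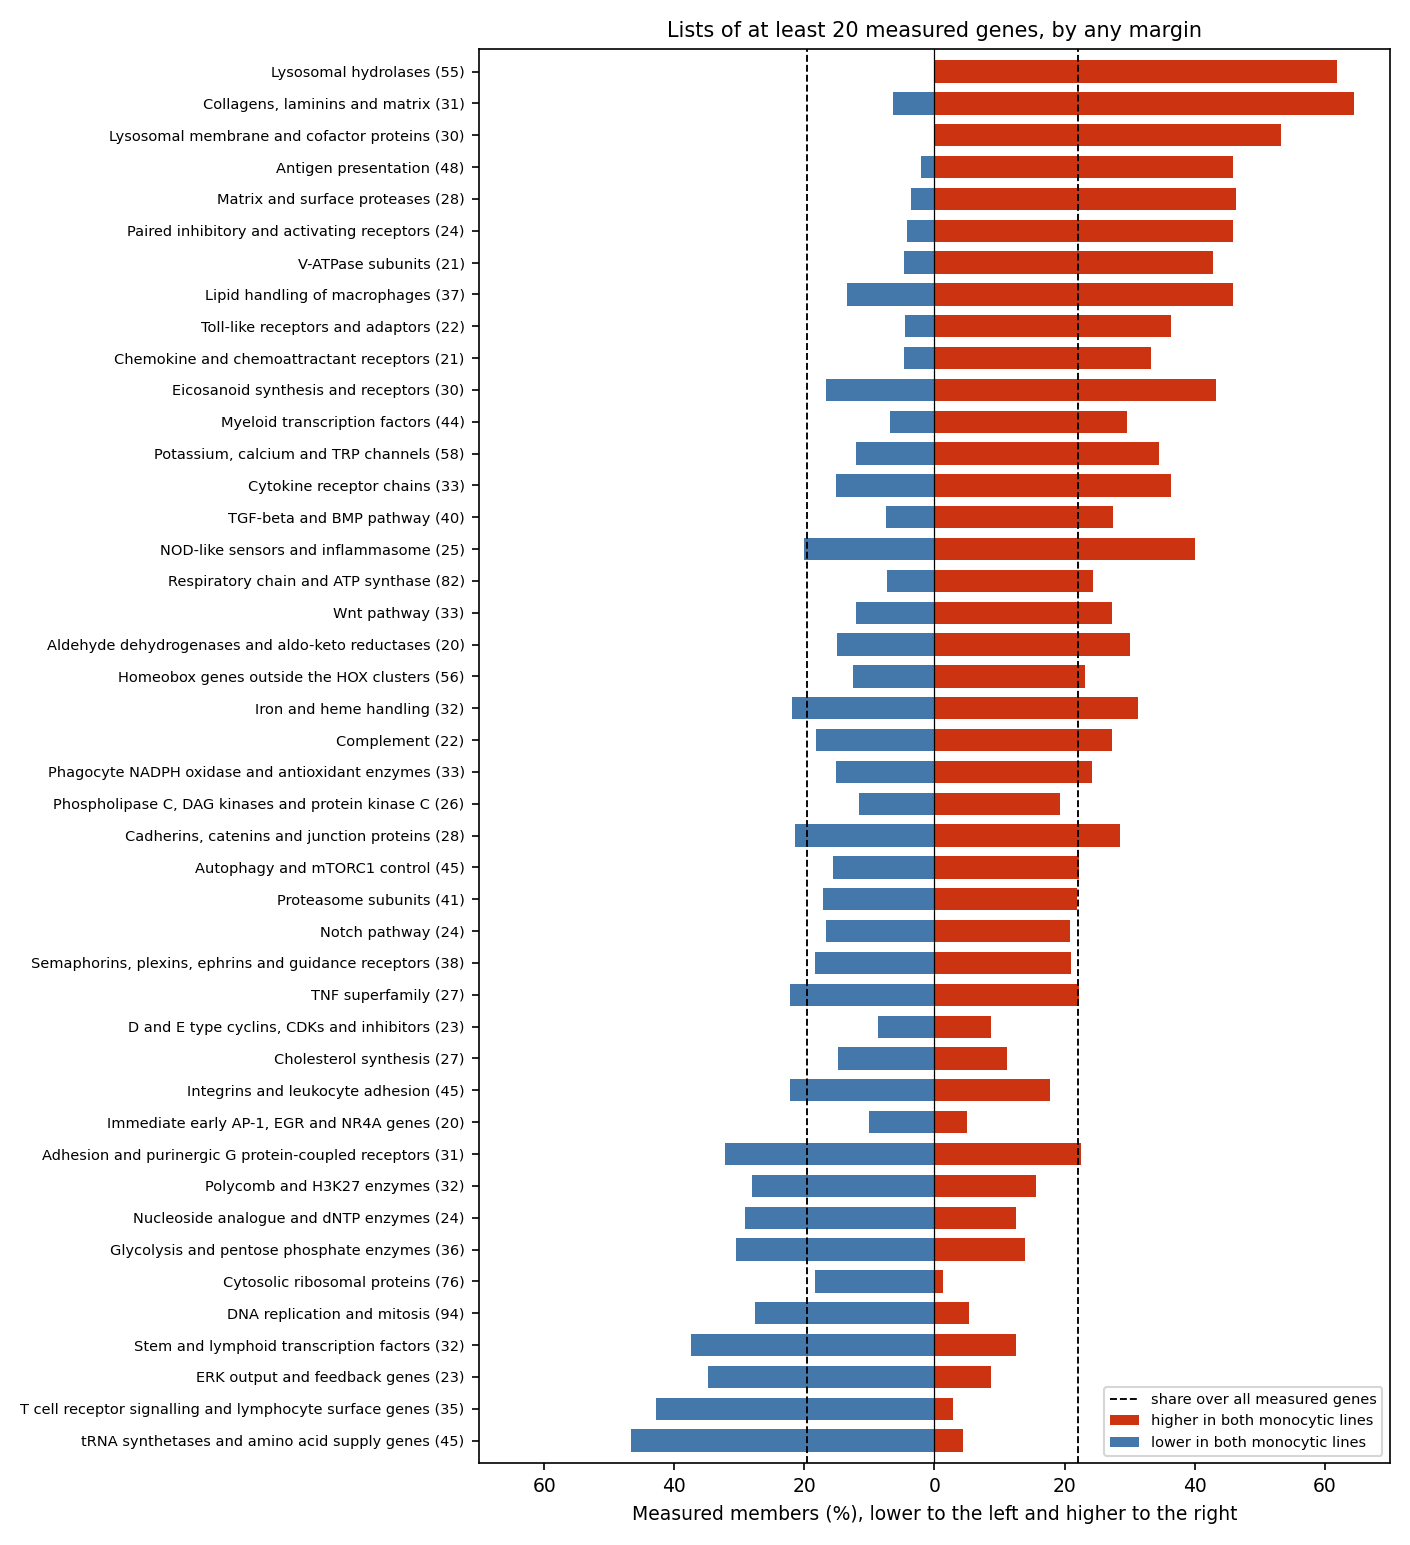
Share of measured genes higher (right) or lower (left) in both monocytic lines by any margin, for 44 lists with at least 20 measured genes; numbers in parentheses are measured genes and dashed lines the shares of all genes, 22.1% and 19.6%. Lists are ordered by the share higher minus the share lower, with lysosomal hydrolases (61.8% higher, 0 lower) at the top and amino acid supply genes (46.7% lower) at the bottom.

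Lysosomal enzymes were higher as a broad group. Of 62 listed hydrolases 55 were measured, 34 were higher in both monocytic lines by any margin, 0 were lower, and 5 were called. The median pair difference was 1.19, and the median level of the 55 genes was 24.5 and 25.2 against 9.21 and 9.80 RPKM. With no filter on low values 39 of the 62 were higher and 0 lower, where 18.5% and 15.7% of all symbols were. With each line left out in turn 34 to 45 were higher and 2 to 7 lower, and the median stayed between 1.06 and 1.36. Over all genes 32.5% to 39.3% were then higher and 29.9% to 38.5% lower. Most of the gaps were modest, and 19 of the 34 were under 2-fold.

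Among the proteases 12 of 17 measured genes were higher and 4 were called. CTSZ, a carboxypeptidase of the cathepsin family, stood at 129 RPKM for THP-1, 277 for MonoMac-1, 22 for HL60 and 0.0815 for KG1a. CTSH, an aminopeptidase, was present at 30.2 and 43.6 against 2.95 and 0.322. CTSL2, which encodes cathepsin V, was nearly absent outside the monocytic lines, at 10.3 and 11.8 against 0.0679 and 0.01096, and so was NAPSB, a transcribed pseudogene of an aspartic protease, at 36.9 and 38.6 against 0 and 0.00751. Reads of NAPSB and CTSL2 may be shared with the close copies NAPSA and CTSL1, so their values are less certain. CTSS, whose product cathepsin S trims the invariant chain of HLA class II (41.4 and 26.6 against 11.4 and 1.93) and CTSL1, which encodes cathepsin L (34.7 and 21.3 against 12.1 and 0.0259), were higher without being called, since HL60 had an intermediate level. CTSD, the main aspartic protease of lysosomes, did not separate the pairs, at 93.1 and 275 against 105 and 153. KG1a was below HL60 for 9 of the 12 higher proteases.

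The enzymes that break down sugars, sulfates and lipids followed with 22 of 38 measured genes higher, 0 lower and 1 called. That gene was ARSD, a sulfatase on chromosome X, at 14.5 and 13.2 against 0.604 and 0. The acid alpha-glucosidase gene GAA, whose product digests glycogen in the lysosome, reached 47.96 RPKM for THP-1, 29.9 for MonoMac-1, 2.72 for HL60 and 13.03 for KG1a. GALC, which encodes galactosylceramidase, had 10.6 and 12.7 against 3.503 and 0.0571. For GAA KG1a stood above HL60, whereas for GALC KG1a was the lowest line. PPT1, a thioesterase that removes fatty acids from proteins, was extreme in THP-1 alone, at 2289 and 126 against 90.3 and 97.8, while its MonoMac-1 level was close to those of HL60 and KG1a.

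**Figure D4:**
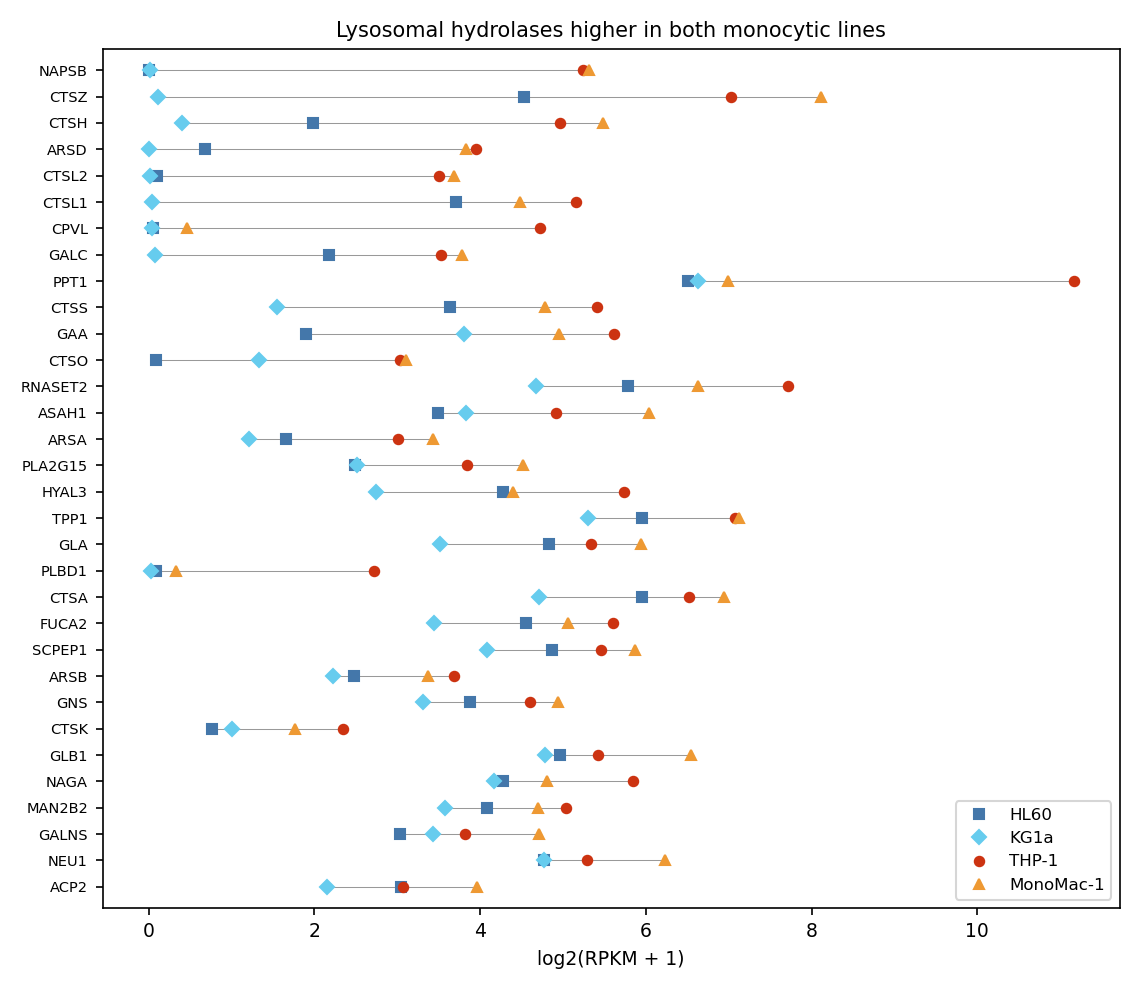
The drawn genes are 32 of the 34 lysosomal hydrolase genes higher in both monocytic lines, ordered by pair difference; each symbol is the value of 1 library on log2(RPKM + 1). THP-1 and MonoMac-1 lie to the right of HL60 and KG1a in every row by the choice of genes, and the distance ranges from the called genes NAPSB, CTSZ, CTSH, ARSD and CTSL2 to ACP2, where the pairs nearly touch.

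Proteins of the lysosomal membrane and cofactors of the enzymes, listed with the transcription factors TFEB, TFE3 and MITF, showed the same direction. Of 32 listed genes 30 were measured, 16 were higher, 0 lower and 2 called, with a median of 0.71. The called genes were CD68, a glycoprotein of macrophage lysosomes, and MCOLN2, a cation channel of endosomes, at 35.4 and 25.01 against 0.581 and 0. MCOLN3, its relative, was also near absent from the other lines, at 3.92 and 2.92 against 0.0145 and 0. CD63, a tetraspanin of lysosomes and granules, stood at 296 RPKM for THP-1, 331 for MonoMac-1, 79.98 for HL60 and 63 for KG1a. TPCN1, a pore channel of endolysosomes, had 36.9 and 28.4 against 9.18 and 1.83. TFEB, the transcription factor that activates lysosomal genes, was among the 16, at 7.21 and 4.55 against 1.26 and 0.255, although its level was low. Of its relatives MITF was higher by a gap of only 0.11 and TFE3 did not separate the pairs. Of 21 measured subunits of the V-ATPase, the proton pump that acidifies lysosomes, 9 were higher, 1 lower and 0 called (25 listed, median 0.39), and MonoMac-1 was the highest line for 8 of the 9. Its subunit gene ATP6V1B2 differed most, at 90.4 and 60.2 against 15.6 and 20.8, and the membrane subunit ATP6V0B read 184 and 198 against 152 and 41.4.

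Promoters are shown for 2 lysosomal genes because many genes of lysosomal biogenesis are known to share an E-box, the letters TCACGTGA, which TFEB and its relatives bind. The window runs from 250 bases before to 50 bases after the RefSeq start (GRCh38.p14), both strands were searched, and matches that overlap were counted separately. The letters were present in 5 of 39 hydrolase promoters found in the RefSeq table (12.8%), in 3 of 23 for the membrane list (13%) and in 283 of all 27305 promoters (1.04%). The 5 hydrolase genes were GAA, SCPEP1, CTSA, GALNS and PLBD2. Of these 5 genes 4 were higher in both monocytic lines, and of the 34 hydrolase genes without the letters 19 were. Of the 3 membrane genes with a match 0 were higher, against 11 of 20 without, so the shares with and without the letters were not ordered alike in both lists. The window of GAA is chr17:80101331-80101630 (plus strand) with 2 matches, and that of SCPEP1, a serine carboxypeptidase gene, is chr17:56977881-56978180 (plus strand) with 1. Capitals mark the matches, 5′ to 3′ along the gene's strand.
GAA: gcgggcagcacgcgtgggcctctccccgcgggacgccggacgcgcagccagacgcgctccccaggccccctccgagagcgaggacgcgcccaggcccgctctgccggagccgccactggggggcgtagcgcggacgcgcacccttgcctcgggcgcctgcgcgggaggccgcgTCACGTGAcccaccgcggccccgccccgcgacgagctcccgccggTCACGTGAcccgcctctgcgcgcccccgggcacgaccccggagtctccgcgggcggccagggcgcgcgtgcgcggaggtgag
SCPEP1: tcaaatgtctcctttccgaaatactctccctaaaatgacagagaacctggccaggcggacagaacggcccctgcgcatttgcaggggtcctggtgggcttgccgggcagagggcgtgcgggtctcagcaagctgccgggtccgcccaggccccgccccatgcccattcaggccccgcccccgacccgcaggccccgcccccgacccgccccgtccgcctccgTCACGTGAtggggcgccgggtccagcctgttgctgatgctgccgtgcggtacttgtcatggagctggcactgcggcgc

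Inhibitors of proteases accompanied the proteases. Of 27 listed cystatins, serpins and tissue inhibitors 18 were measured, 10 were higher, 1 lower and 4 called, with a median of 0.80. Without a filter 12 of the 27 were higher and 1 lower, and the median was 0.06. CST3, which encodes cystatin C, the secreted inhibitor of cathepsins, stood at 322 RPKM for THP-1, 190.2 for MonoMac-1, 12.5 for HL60 and 1.13 for KG1a. SERPINB2, an inhibitor of the plasminogen activator urokinase, had 57.9 and 47.3 against 1.42 and 0. SERPINF1, which encodes the secreted factor PEDF, had 90.4 and 37.7 against 1.26 and 0.607, and SERPINB8 had 33.1 and 72.97 against 6.58 and 0.797. CSTA, a cytosolic cystatin, was high in HL60 too, at 101 and 127 against 70.6 and 0.0866, and KG1a alone lacked it. The tissue inhibitor of metalloproteinases TIMP2 stood at 30.3 and 47.3 against 7.102 and 0.0135, whereas TIMP1 did not separate the pairs, at 83.95 and 41.4 against 42.9 and 128.

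Matrix genes were mostly under 1 RPKM, and those measured were mostly higher. Of 82 listed collagens, laminins and other matrix genes only 31 were measured, of which 20 were higher, 2 lower (1 after removal of the KG1a share) and 3 called. Without a filter 30 of the 82 were higher and 8 lower. NID1, which encodes the basement membrane protein nidogen, stood at 78.3 RPKM for THP-1, 21.98 for MonoMac-1, 0.0138 for HL60 and 0.00557 for KG1a. COL9A2, a chain of a cartilage collagen, reached 252 and 14.8 against 1.72 and 0.0319, so that THP-1 exceeded MonoMac-1 by a wide distance. COL8A2, a short-chain collagen gene, was called at lower levels, 12.5 and 4.904 against 0 and 0.00737. The collagen VI genes COL6A1 (9.37 and 2.51 against 0.0127 and 0.362) and COL6A2 (5.78 and 2.86 against 0.00468 and 0) were higher without being called. TGFBI, a secreted adhesion protein, was mainly a THP-1 transcript, at 96.8 and 1.33 against 0.124 and 0. ELN, which encodes elastin, was lower, with 18.2 RPKM in KG1a and 0.449 in HL60, a value within the KG1a share.

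Proteases that act on the matrix and at the cell surface gave 13 higher, 1 lower and 3 called of 28 measured genes (75 listed, and 22 higher and 4 lower without a filter). MMP14, the membrane-type metalloproteinase that activates MMP2, stood at 38.6 RPKM for THP-1, 38.01 for MonoMac-1, 0.751 for HL60 and 0.245 for KG1a, nearly equal in both monocytic lines. MMP2 itself, a gelatinase, was higher without being called, at 4.67 and 12.8 against 0.824 and 0.00426. ADAMTS2, which trims procollagens, had 9.92 and 6.48 against 0.00366 and 0.0174, and ADAMTSL4, a secreted relative without protease activity, had 6.53 and 10.3 against 0.572 and 0.224. In contrast ANPEP, the aminopeptidase known as CD13, was highest in HL60, at 126 and 21.3 against 217 and 35.1. The urokinase gene PLAU overlapped between the pairs as well, at 9.81 and 31.3 against 21.8 and 0.8997.

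Proteases of azurophil granules were also among the higher genes. Of 28 listed neutrophil granule genes 19 were measured, 10 higher, 2 lower and 5 called, and all 5 called genes were among the 12 azurophil genes measured. Besides LYZ, ELANE, AZU1 and CFD these included CTSG, the granule protease cathepsin G, at 1789 RPKM for THP-1, 2410.3 for MonoMac-1, 119.6 for HL60 and 19.9 for KG1a. PRTN3, which encodes proteinase 3, was higher without being called, at 1624 and 1558 against 615 and 0.237. MPO went the other way in HL60, at 4.78 and 95.2 against 4610.2 and 3.097, and did not separate the pairs. CHI3L1, a chitinase-like secreted protein, was abundant in THP-1 only, at 1035 and 16.6 against 7.001 and 0.966. After removal of the KG1a share 0 genes of the list were lower. In the eosinophil, basophil and mast cell list 3 of 16 measured genes were higher, 8 lower and 1 called (24 listed, median -0.81). RNASE2, an eosinophil ribonuclease that monocytes also make, was called higher at 510.5 and 607 against 96.9 and 0.267, while PRG2, the eosinophil major basic protein, was an HL60 transcript at 1.58 and 4.68 against 7020.2 and 6.38. CPA3, a mast cell protease, was at 24.7 RPKM in KG1a and 0.985 in HL60, close to the KG1a share.

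Of 22 measured genes of the Toll-like receptor pathway, through which monocytes sense microbes, 8 were higher, 1 lower and 2 called (27 listed, median 0.49). The 8 were 1 of 6 receptors, 4 of 5 co-receptors and 3 of 11 adaptors and kinases. The called genes were TLR2, a receptor for bacterial lipoproteins, and LY86, which encodes the secreted partner MD-1, at 16.4 and 146 against 0.8095 and 0.0792. CD180, the receptor that MD-1 binds, was higher at lower levels, 3.19 and 19.6 against 0.07104 and 0.00905. UNC93B1, which carries Toll-like receptors to endosomes, had 57 and 53.4 against 34.3 and 5.92. TLR4, the endotoxin receptor, lay in HL60 between the monocytic lines, at 5.77 and 7.42 against 6.13 and 0.00852. The kinase IRAK1 (70.5 and 74.4 against 114 and 60.4) and the adaptor MYD88 (14.7 and 27.2 against 5.7 and 19.8) did not separate the pairs.

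The intracellular sensors gave 10 higher, 5 lower and 1 called of 25 measured genes (32 listed, median 0.19, which became -0.27 without HL60 and -0.06 under quantile normalization). NLRP3, the inflammasome sensor, was the called gene. Its adaptor PYCARD was at 128 and 122 against 69.4 and 1.55, so that KG1a alone stood low. CARD9, an adaptor downstream of fungal receptors, showed the same order, at 55.98 and 44.5 against 33.4 and 0.0984, and NOD2, a sensor of bacterial cell wall, was scarce outside the monocytic lines, at 2.17 and 6.19 against 0.0505 and 0.161. IFI16, a DNA sensor, was lower, with 133 RPKM for KG1a, 8.43 for MonoMac-1 and 6.76 for THP-1, but its HL60 level of 10.02 RPKM was close to theirs.

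Fc receptors and their adaptors had 7 higher, 1 lower and 1 called of 19 measured genes (33 listed, median 1.13). Without a filter 9 of the 33 were higher and 2 lower, and the median was only 0.09. FCGRT, the receptor that recycles antibodies, was the called one and was even in both monocytic lines, at 83.6 RPKM for THP-1, 87.4 for MonoMac-1, 0.333 for HL60 and 0.293 for KG1a. TYROBP, an adaptor that couples myeloid receptors to kinases, was at 73.5 and 203 against 29.2 and 0.619, and FCER1G, the common gamma chain of Fc receptors, at 146 and 115 against 23.01 and 44.1. FCGR1A, the high-affinity IgG receptor, had 18.9 and 24.96 against 8.14 and 0.00395. HCST, an adaptor used by lymphoid receptors, was lower at 12.7 and 28.5 against 59.02 and 140.2. The kinases SYK (81.9 and 59.2 against 64.9 and 86.2) and LYN (36.9 and 87.5 against 14.2 and 195) did not separate the pairs.

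Inhibitory and activating immunoglobulin-like receptors gave 11 higher, 1 lower and 1 called of 24 measured genes (37 listed, median 0.97). Without a filter 15 of the 37 were higher and 1 lower, with a median of 0.32. LILRB4 was the called gene. LAIR1, a collagen receptor, was at 78.5 and 143 against 34.6 and 0.517, and LILRA2, an activating receptor, at 16.3 and 10.99 against 7.41 and 0.0233. TREM2, a lipid receptor of macrophages, was a THP-1 transcript, at 45.4 and 1.35 against 0 and 0.0312. SIRPA, which binds CD47, was as high in HL60, at 15.6 and 15.02 against 20.3 and 0.00366. The called gene of the 11 measured siglecs and related genes (17 listed, 3 higher, 0 lower) was C20orf103, now named LAMP5 and not itself a siglec, and CD33 did not separate the pairs, at 38.3 and 38.8 against 59.5 and 4.73. C-type lectins were split, with 6 higher, 3 lower (2 after removal of the KG1a share), 1 called higher and 1 called lower of 16 measured (34 listed). CLEC11A, a secreted growth factor for blood progenitors, stood at 588 RPKM for THP-1, 942 for MonoMac-1, 48.7 for HL60 and 7.31 for KG1a, among the most abundant transcripts on the higher side. MRC2, a collagen uptake receptor, was at 55.9 and 33.03 against 20.1 and 0.101. CD69 was the called lower one, and CLEC9A was a KG1a transcript at 41.8 RPKM with 0.958 in HL60, within the KG1a share.

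Chemokine and chemoattractant receptors counted 7 higher, 1 lower (0 after removal of the KG1a share) and 2 called of 21 measured (38 listed, median 0.58, which was 0.03 without MonoMac-1). Without a filter 11 of the 38 were higher and 3 lower, and the median was 0.09. The called genes CCR2 and CCR1 are neighbours on chromosome 3. CXCR2, a neutrophil receptor, was at 13.6 and 7.79 against 5.71 and 0.642 and CX3CR1, the fractalkine receptor, was mainly a THP-1 transcript, at 12.1 and 0.533 against 0.236 and 0.481. CXCR4, which holds blood cells in the marrow, overlapped, at 43.3 and 147 against 44.7 and 0.0613. Cytokine receptor chains gave 12 higher and 5 lower of 33 measured, with FLT3 and IL12RB2 called higher and IL2RG called lower (39 listed, median 0.44). IL12RB2, a chain of the interleukin-12 receptor, was at 14.3 RPKM for THP-1, 22.1 for MonoMac-1, 0.645 for HL60 and 0.154 for KG1a. IL10RB had 66.3 and 65.7 against 19.9 and 11.8 and IL17RA 26 and 43.7 against 12.3 and 0.833. CSF1R, the receptor for macrophage colony-stimulating factor, was high in THP-1 only, at 31.1 and 2.31 against 0.594 and 0.292. In the TNF superfamily 6 were higher, 6 lower and 1, CD70, called among 27 measured (45 listed), and 3 were lower after removal of the KG1a share. TNFRSF1B, a TNF receptor, was at 22.9 and 24.8 against 20.02 and 0.0401.

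Antigen presentation genes had 22 higher, 1 lower, 4 called higher and 1 called lower of 48 measured (59 listed, median 0.77). Class II genes and their regulators gave 10 of 17 higher and 3 called (HLA-DRB1, HLA-DRB5 and HLA-DQB1; the first pair are close copies, so each value is uncertain), and class I and processing genes 11 of 24 higher and 0 called. The class II signal was uneven between the lines. HLA-DRA, the alpha chain of HLA-DR, stood at 4.39 and 429.8 against 1.28 and 0.494, and HLA-DPA1 at 1.03 and 74.4 against 0.631 and 0.0559, so that MonoMac-1 carried most of both. CD74, the class II chaperone, was as high in HL60 as in THP-1, at 79.8 and 608 against 88.8 and 1.67. Without MonoMac-1 the list median was 0.37, and 23 were higher and 7 lower, where 32.5% and 32.9% of all genes were. CD276, a checkpoint ligand known as B7-H3, was called at 21.1 RPKM for THP-1, 8.498 for MonoMac-1, 0.0169 for HL60 and 0 for KG1a, and CD48, an adhesion ligand of lymphoid cells, was called lower at 24.3 RPKM for HL60, 21.7 for KG1a, 3.04 for MonoMac-1 and 0 for THP-1. Of class I, B2M (1032 and 1950.04 against 1347 and 1504) and HLA-B (279 and 1301 against 369 and 336) did not separate the pairs. The immunoproteasome subunit gene PSMB10, which shapes class I peptides, was higher at 158 and 135 against 60.5 and 24.3, while of all 41 proteasome subunits measured 9 were higher, 7 lower and 0 called (43 listed).

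Small calcium-binding proteins included several abundant calls. Of 13 measured S100 genes 7 were higher, 2 lower and 4 called (22 listed, median 0.72). Without a filter 8 of the 22 were higher and 2 lower, and the median was 0.10. S100A4, a calcium sensor linked to motility, stood at 666 RPKM for THP-1, 465 for MonoMac-1, 98.8 for HL60 and 16.4 for KG1a. S100A8 and S100A9 encode the subunits of calprotectin. S100A8 was at 111 and 57.9 against 3.59 and 0.125, S100A9 was at 314 and 92.5 against 15.2 and 2.598, and S100A12 was at 3.93 and 3.73 against 0.129 and 0. S100A6 was higher without being called, at 275 and 250.1 against 38.3 and 67.3, and S100A11 barely so, at 163 and 238 against 124 and 155. Among the 9 measured annexins, membrane-binding calcium sensors, 3 were higher, 2 lower and 1 called (16 listed): ANXA2, at 39.3 and 199 against 5.07 and 1.17. LGALS1, the lectin galectin-1, was higher at 919 and 1216 against 233 and 539.7, and LGALS12 was called lower at 18.2 RPKM for HL60, 89.7 for KG1a, 0.902 for MonoMac-1 and 2.46 for THP-1, 1 of 9 measured galectins (14 listed).

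Metallothioneins are small cysteine-rich proteins that bind zinc and copper. Of 17 listed genes, including their activator MTF1 and the zinc exporter SLC30A1, 10 were measured, 7 higher, 0 lower and 3 called. Without a filter 7 of the 17 were higher and 0 lower, and the median was 0.06, against 1.20 with the filter. MT1E was the strongest, and MT1F (25.6 and 51.8 against 0.0921 and 0) and MT1G (12.4 and 61.9 against 0.0438 and 0) followed. MT1X stood at 17.9 and 62.6 against 13.1 and 4.398, a gap well under 4-fold. SLC30A1 was at 15.2 and 15.2 against 5.22 and 5.12, nearly even within each pair, and MTF1 at 7.12 and 4.88 against 4.75 and 2.59. MT2A ran against them, at 23.2 and 49.8 against 219.6 and 7.54, with HL60 far above the other lines. The genes are near-identical copies, and how reads were divided among them is not given in the sources used here, so single values are uncertain. MT1E, MT1F and MT1G lie next to each other among the called genes, within 42.4 kb of chromosome 16 (56659585 to 56701977, hg19).

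The promoter of MT1X is shown because metallothionein genes are known for repeated metal response elements, to which MTF1 binds. The core searched was TGCNCNC, on both strands, which is looser than the published core and present in 55.2% of all promoters. The 5 promoters of the list that had an entry in the RefSeq table all held it, with a median of 4 matches against 1 over all promoters. They were MT1H and MT2A with 8 matches each, MT1X with 4, and SLC30A1 with 2 and MTF1 with 1, which are not metallothioneins. The called genes MT1E, MT1F and MT1G were not matched in the table. The MT1X window (RefSeq, GRCh38.p14, chr16:56682220-56682519, plus strand) had 4 matches, shown in capitals, 5′ to 3′ along the gene's strand.
MT1X: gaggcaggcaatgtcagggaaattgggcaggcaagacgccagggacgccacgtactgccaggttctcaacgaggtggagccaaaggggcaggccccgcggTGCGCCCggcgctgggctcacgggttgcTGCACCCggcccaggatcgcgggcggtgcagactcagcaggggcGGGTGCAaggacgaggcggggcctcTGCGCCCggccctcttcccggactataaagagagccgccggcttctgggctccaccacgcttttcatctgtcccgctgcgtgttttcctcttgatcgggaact

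Lipid metabolism gave mixed levels within the monocytic pair. Of 37 measured genes of macrophage lipid handling 17 were higher, 5 lower (3 after removal of the KG1a share) and 2 called (53 listed, median 0.71), and MonoMac-1 was the highest line for 14 of the 17. Without a filter 21 of the 53 were higher and 6 lower, and the median was 0.22. APOC1, an apolipoprotein, was called at 39.3 RPKM for THP-1, 89.7 for MonoMac-1, 3.59 for HL60 and 0.0711 for KG1a, and APOC2, of the same gene cluster, missed the rule by little at 205 and 371 against 50.8 and 0.0529. CD36, the scavenger receptor, stood at 4.398 and 11.9 against 0.0586 and 0.0302. MonoMac-1 alone had FABP4, a fatty acid carrier, at high level (0.172 and 92.97 against 0 and 0.0237), and PPARG, the nuclear receptor that controls it, was likewise higher there, at 4.39 and 27.98 against 0.491 and 0. PLTP, which transfers phospholipids, was at 21.7 and 107 against 8.65 and 0.00501. STAB1, a scavenger receptor, was a KG1a transcript at 125 RPKM with 3.31 in HL60, within the KG1a share.

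Enzymes and receptors of eicosanoids, the lipid mediators of inflammation, had 13 higher, 5 lower and 2 called of 30 measured (41 listed, median 0.49). PTGDS, a prostaglandin D synthase, was at 5.18 and 44.8 against 0 and 0, and EPHX2, the soluble epoxide hydrolase, at 6.902 and 8.41 against 0 and 0.01499. HPGDS, the other prostaglandin D synthase and a mast cell enzyme, was lower, at 2.48 RPKM for HL60, 43.04 for KG1a, 0.0393 for MonoMac-1 and 0.0623 for THP-1. The 2 genes for the same reaction thus lay on opposite sides. PTGER4, a prostaglandin E receptor, stood at 26.4 and 16.1 against 7.48 and 1.33, and ALOX5AP, which helps start leukotriene synthesis, at 23.7 and 54.6 against 16.9 and 16.3.

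The phagocyte oxidase was represented by CYBA, the membrane subunit p22phox, called at 456.1 RPKM for THP-1, 374 for MonoMac-1, 64.1 for HL60 and 66.1 for KG1a. CYBB, its partner gp91phox, overlapped, at 4.28 and 41.8 against 5.96 and 0.9605. The list of oxidase and antioxidant genes had 8 higher, 5 lower and 1 called of 33 measured (37 listed, median 0.38). GPX1, a glutathione peroxidase, was at 429 and 563 against 127 and 43.8, and PRDX1, a peroxiredoxin, was lower at 181 and 172 against 244 and 1418, with KG1a far above. Of 32 measured iron and heme genes 10 were higher, 7 lower and 0 called (45 listed). BLVRA, which reduces biliverdin, was at 20.1 and 47.5 against 4.11 and 5.32, and the iron exporter SLC40A1 at 4.72 and 16.6 against 2.94 and 0.0194, while FTL, the ferritin light chain, was high in all 4 lines, at 2891 and 3303 against 3104 and 1691.

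Transcription factors of the myeloid lineage were higher in part. Of 44 measured 13 were higher, 3 lower, 3 called higher and 1 called lower (48 listed, median 0.30). Besides IRF8 the higher calls were CEBPD, an acute-phase factor, at 35.2 RPKM for THP-1, 45.5 for MonoMac-1, 3.69 for HL60 and 0.127 for KG1a, and IRF5, a factor of inflammatory macrophages, at 57.3 and 30.9 against 5.04 and 6.68. CEBPA, which commits progenitors to the myeloid fate, was at 185 and 159 against 105 and 13.7 and KLF4, a monocyte factor, at 3.79 and 8.16 against 0.923 and 0. SPI1, which encodes PU.1, was absent mainly from KG1a, at 98.9 and 168 against 117 and 1.41. GFI1B, a transcriptional repressor active in erythroid and megakaryocyte cells, was called lower at 4.603 RPKM for HL60, 124 for KG1a, 0.0071 for MonoMac-1 and 0.00803 for THP-1. Its HL60 value was 3.71% of KG1a, and it lost the call after removal of the KG1a share.

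Homeobox genes outside the HOX clusters had 13 higher, 7 lower and 1 called of 56 measured (153 listed; 22 higher and 14 lower without a filter). The median was 0.56, and -0.07 without THP-1. BARX1, best known from stomach and tooth development, was the called gene. IRX3 stood at 49.5 and 79.2 against 14.9 and 0.0426 and ZEB2, a repressor needed in myeloid development, at 33.5 and 36.3 against 9.71 and 6.34. Some members were seen in THP-1 alone, such as ALX1 (18.4 and 0 against 0 and 0) and POU4F2 (18.8 and 0.00401 against 0 and 0). The 16 measured HOX cluster genes gave 2 higher, 2 lower (1 after removal of the KG1a share) and 0 called (39 listed).

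Stem cell and lymphoid factors had 12 lower, 4 higher and 1 called lower of 32 measured (47 listed, median -0.50). Stem cell and megakaryocyte-erythroid factors were lower in 7 of 15 and higher in 0, with a median of -0.99. Lymphoid factors were lower in 5 of 17 and higher in 4, with a median of 0.21. ZBTB16, the repressor PLZF, was the called gene, nearly even in HL60 and KG1a. HHEX, a homeobox factor of progenitors, stood at 25.6 RPKM for HL60, 52.01 for KG1a, 4.37 for MonoMac-1 and 5.89 for THP-1. NFATC2, a calcium-activated factor, had 6.31 and 1.07 against 20.2 and 17.1. LYL1, a helix-loop-helix factor of stem cells, had 28.6 and 50.8 against 106 and 55.5. TOX and ERG were KG1a transcripts, with 40.5 and 22.8 RPKM there and 1.31 and 1.19 in HL60. SATB1, a chromatin organizer, was higher, at 68.7 and 53.3 against 8.61 and 32.96.

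Lymphocyte surface and T cell receptor signalling genes had 15 lower, 1 higher and 4 called lower of 35 measured (58 listed, median -0.83, and 19 lower and 4 higher without a filter). KG1a was the highest line for 14 of the 15. After removal of the KG1a share 11 were lower. The called genes CD69, PTPRCAP and ITM2A did not depend on it, since HL60 had 62.2, 91.5 and 60.8 RPKM of them, whereas IL32 did. CD96 (0.0704 and 0.0113 against 1.69 and 52.98), CD247 (0.487 and 0.477 against 1.46 and 56.1) and CD7 (0 and 0.0784 against 0.562 and 21.5) had HL60 levels of a few percent of KG1a. CD38, an ectoenzyme of activated cells, was the 1 higher gene, at 22.3 and 3.17 against 0.144 and 0.449.

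Other called lower genes came from adhesion, signalling and growth control. ITGA6, a laminin-binding integrin, was at 11.2 RPKM for HL60, 7.22 for KG1a, 0.2197 for MonoMac-1 and 0.655 for THP-1, and ITGA2B, the platelet integrin, at 7.26 RPKM for HL60, 90.3 for KG1a, 0.33 for MonoMac-1 and 0.323 for THP-1. On the other side ITGA7, another laminin-binding integrin, was called higher at 7.28 and 24.7 against 0.871 and 0.147, and PECAM1, an adhesion molecule of endothelium and leukocytes, at 17.7 and 34.2 against 3.26 and 0.00688. The integrin and adhesion list as a whole had 8 higher and 10 lower of 45 measured (62 listed), and 7 were lower after removal of the KG1a share. ITGB2, the common chain of leukocyte integrins, was at 263 and 69.5 against 30.5 and 35.7 and CD44, the hyaluronan receptor, at 20.2 and 15.3 against 55.3 and 255. Among junction proteins JUP, which encodes plakoglobin, was called lower at 48.6 RPKM for HL60, 104 for KG1a, 5.87 for MonoMac-1 and 1.59 for THP-1, while CTNNA1, which encodes alpha-catenin, was higher at 45.8 and 25.7 against 1.26 and 11.5. CLDN23, a claudin, was called higher at 3.79 and 4.45 against 0.00775 and 0. The list of cadherins, catenins and junction proteins had 8 higher, 6 lower, 1 called higher and 2 called lower of 28 measured (73 listed). After removal of the KG1a share 3 were lower and 1 was called lower. These lists thus held opposite members, and their medians of -0.10 and -0.04 changed sign under at least 1 alternative.

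Genes induced by ERK signalling that feed back on it gave 8 lower, 2 higher and 1 called lower of 23 measured (28 listed, median -0.45), and 8 were also lower after removal of the KG1a share. SPRY1, a brake on receptor tyrosine kinases, was the called gene, at 7.29 RPKM for HL60, 14.7 for KG1a, 0.0241 for MonoMac-1 and 0.214 for THP-1. DUSP6, an ERK phosphatase, stood at 9.71 and 8.84 against 23.7 and 135, DUSP5, another ERK phosphatase, at 0.843 and 0.469 against 3.098 and 9.42, and SPRED1, a Ras inhibitor, at 0.109 and 0.0208 against 2.51 and 3.66. MYC was at 113 and 137 against 596 and 141, with KG1a near the monocytic lines and HL60 far above. Immediate early genes of the AP-1, EGR and NR4A families, by contrast, had 1 higher, 2 lower and 0 called of 20 measured (23 listed). FOS was the higher one, at 20.2 and 114 against 7.51 and 1.49.

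CCND2, a D-type cyclin, was the only called gene among 23 cyclins, CDKs and inhibitors of the G1 phase, which gave 2 higher and 2 lower, CCND2 included. CDK6, its partner kinase, did not separate the pairs, at 39.5 and 46.7 against 17.1 and 82.99. JAG1, a Notch ligand, was called lower at 16.9 RPKM for HL60, 50.7 for KG1a, 2.12 for MonoMac-1 and 0.579 for THP-1, while JAG2, another ligand, was higher at 4.65 and 5.501 against 0.342 and 1.49, and the 24 measured Notch genes gave 5 higher and 4 lower (36 listed). Nicastrin (NCSTN), a subunit of the protease that cleaves Notch, stood at 112 and 84.5 against 28.6 and 31.2. LGR4, a receptor that amplifies Wnt signals, was called higher at 21.8 and 5.77 against 0.328 and 0.0156 among 33 measured Wnt genes, of which 9 were higher and 4 lower (64 listed). PLCH1, a phospholipase C, was called lower at 11.6 RPKM for HL60, 22.6 for KG1a, 0.00965 for MonoMac-1 and 0.0418 for THP-1, and NTNG2, a guidance protein, at 8.45 RPKM for HL60, 9.46 for KG1a, 0.605 for MonoMac-1 and 0.1405 for THP-1. PLXNB2, a plexin receptor, was higher at 92.8 and 31.3 against 6.902 and 9.55. The list of semaphorins, plexins, ephrins and guidance receptors gave 8 higher, 7 lower and 1 called lower of 38 measured (73 listed).

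HMGA2, a chromatin protein of fetal and cancer cells, was called lower at 33.3 RPKM for HL60, 10.8 for KG1a, 0.00275 for MonoMac-1 and 0.00624 for THP-1. Of the 9 measured genes of the oncofetal list 5 were lower and 0 higher (13 listed, median -1.45). IGF2BP3, an RNA-binding protein, stood at 20.6 RPKM for HL60, 3.41 for KG1a, 0.139 for MonoMac-1 and 0.811 for THP-1, and HMGA1 at 230.3 and 206 against 486 and 298. IGF2BP1 (0.0131 and 0.00073 against 35.5 and 0.0112) and LIN28B (0.00523 and 0.00231 against 10.8 and 0.00595) were HL60 transcripts. Without HL60 the median was -0.10, and 5 were lower and 2 higher, where 38.5% and 39.3% of all genes were.

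Genes that supply amino acids and charged tRNA were lower as a broad group, with the largest share of the 44 lists of at least 20 measured genes that are drawn above. Of 45 genes, all measured, 21 were lower in both monocytic lines (46.7%), 2 were higher, 0 were called and the median was -0.59. HL60 was the highest line for 18 of the 21, so the list depends on it. Without HL60 the median was -0.24, and 24 were lower and 14 higher, where 38.5% and 39.3% of all genes were. KG1a nonetheless lay above both monocytic lines for all 21, by the definition of the count, and 19 of the 21 gaps were under 2-fold. After removal of the KG1a share 21 were lower as well. The median level of the 45 genes was 78.0 RPKM for HL60, 41.8 for KG1a, 42.8 for MonoMac-1 and 38.5 for THP-1, so that at the median KG1a did not stand above MonoMac-1.

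ALDH18A1, which opens proline synthesis, separated the pairs most, at 77.99 RPKM for HL60, 62.1 for KG1a, 16.4 for MonoMac-1 and 16.2 for THP-1. PHGDH, which opens serine synthesis, was at 56.4 and 33.5 against 170.5 and 122, and PSAT1, the next enzyme, at 34.6 and 23.3 against 206 and 46.3. AARS, the alanyl-tRNA synthetase, had 76.7 and 64.8 against 132 and 109 and YARS, the tyrosyl-tRNA synthetase, 63.3 and 69.1 against 152 and 97.1. ATF4, the transcription factor that activates many of these genes when amino acids run short, stood at 187 RPKM for THP-1, 190.3 for MonoMac-1, 686 for HL60 and 242 for KG1a, so that KG1a exceeded the monocytic lines by far less than HL60 did. CHAC1, which degrades glutathione and responds to ATF4, was at 1.06 and 0.706 against 14.9 and 2.32. QARS (102 and 98.4 against 187 and 81.8) and KARS (84.8 and 94.3 against 147 and 81.3) did not separate the pairs.

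**Figure D5:**
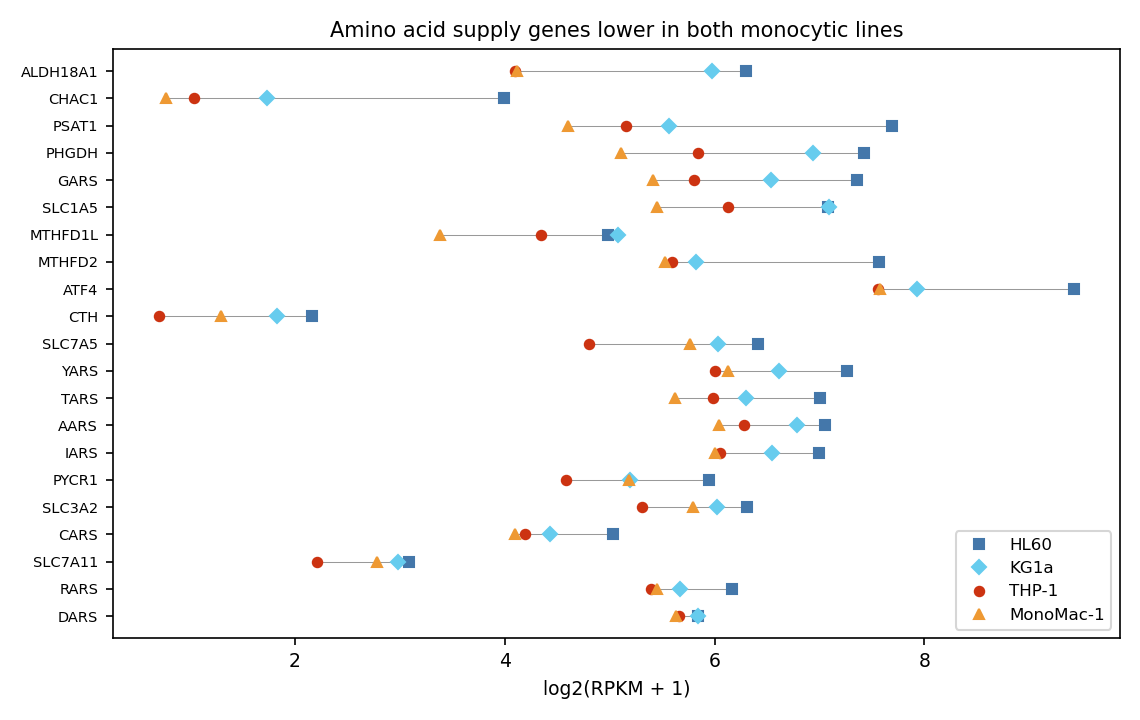
The 21 genes of amino acid supply and tRNA charging that were lower in both monocytic lines, ordered by pair difference; each symbol is 1 library on log2(RPKM + 1). The monocytic lines lie to the left by the choice of genes, HL60 is the rightmost line for 18 of the 21, and only ALDH18A1 and CHAC1 have pair differences near -2.

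Promoters of 2 of these genes are shown because the element that ATF4 binds with C/EBP proteins, with the core TGATGNAA, is known from amino acid response genes. On either strand the core was present in 10 of 34 promoters of the list found in the RefSeq table (29.4%) and in 1003 of all 27305 (3.67%). The 10 genes were AARS, ASNS, CARS, CHAC1, IARS, MARS, MTHFD1L, NARS, SLC3A2 and TARS. Of these 7 were lower in both monocytic lines, and of the 24 without the core 9 were. IARS carries the symbol IARS1 in RefSeq. The windows (RefSeq, GRCh38.p14) are chr9:92293648-92293947 on the minus strand for IARS and chr15:40953221-40953520 on the plus strand for CHAC1. Capitals mark the core, which reads as its reverse complement in both, 5′ to 3′ along the gene's strand.
IARS: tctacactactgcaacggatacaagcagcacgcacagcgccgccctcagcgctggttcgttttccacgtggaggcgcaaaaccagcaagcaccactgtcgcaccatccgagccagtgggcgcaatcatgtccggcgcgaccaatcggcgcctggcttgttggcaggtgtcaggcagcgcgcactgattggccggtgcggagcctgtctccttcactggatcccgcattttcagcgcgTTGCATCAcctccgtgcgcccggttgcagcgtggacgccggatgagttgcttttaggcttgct
CHAC1: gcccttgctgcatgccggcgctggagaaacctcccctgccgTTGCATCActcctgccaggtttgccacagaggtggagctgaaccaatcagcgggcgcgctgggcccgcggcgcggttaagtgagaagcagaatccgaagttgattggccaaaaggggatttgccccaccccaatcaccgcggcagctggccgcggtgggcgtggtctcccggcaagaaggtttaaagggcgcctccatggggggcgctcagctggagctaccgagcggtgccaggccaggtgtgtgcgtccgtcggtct

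Replication and mitosis genes had 26 lower, 5 higher and 0 called of 94, all measured (median -0.22). MKI67, the proliferation antigen, stood at 37.1 and 16.9 against 57.8 and 94.8 and RRM2, the ribonucleotide reductase subunit, at 45.02 and 33.6 against 115 and 94.9. MCM4, a helicase subunit, did not separate the pairs, at 168 and 131 against 97.6 and 214. The differences were small, with 25 of the 26 gaps under 2-fold. Ribosomal protein genes gave 14 lower and 1 higher of 76 measured (78 listed, median -0.35), and MonoMac-1 was the lowest line for 13 of the 14. Without HL60, however, the median was 0.04, with 15 higher and 18 lower, where 39.3% and 38.5% of all genes were. RPS3 stood at 2098 and 1280.1 against 3197 and 2891.

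Sugar metabolism held opposite members. Of 36 measured genes of glycolysis and the pentose phosphate pathway 5 were higher, 11 lower, 1 called in each direction (41 listed, median -0.18, which became 0.07 without HL60 and 0.01 without THP-1). SLC2A3, the high-affinity glucose transporter GLUT3, was called lower at 21.8 RPKM for HL60, 21.3 for KG1a, 3.02 for MonoMac-1 and 0.683 for THP-1. SLC2A6, a lysosomal member of the same transporter family, was called higher at 7.298 and 12.9 against 0.906 and 0.714. The same contrast was seen in the hexokinases, where HK2 was lower, at 35.3 RPKM for HL60, 27.1 for KG1a, 8.21 for MonoMac-1 and 5.49 for THP-1, and HK3, the myeloid form, was higher, at 7.41 and 6.07 against 1.01 and 0.0614. GPI, the second enzyme of glycolysis, was at 203 RPKM for HL60, 204 for KG1a, 70.9 for MonoMac-1 and 56.6 for THP-1, even within each pair, and GAPDH at 1205 and 2178 against 4143 and 2802. FBP1, which runs the pathway in reverse, was higher at 10.3 and 10.3 against 3.19 and 0.

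Nucleotide enzymes that act on cytarabine and related drugs included the called gene SAMHD1, which degrades dNTPs, at 107 RPKM for THP-1, 61.7 for MonoMac-1, 8.41 for HL60 and 0.671 for KG1a. CDA, the cytidine deaminase, was higher at 5.84 and 5.99 against 0.757 and 0.0171. SLC29A2, a nucleoside transporter, was lower at 1.29 and 24.3 against 46.4 and 31.1 and ADA, adenosine deaminase, at 7.86 and 21.9 against 45.8 and 109. Of 24 measured genes 3 were higher, 7 lower and 1 called (26 listed, median -0.15). SESN3, a stress sensor that restrains mTORC1, was the 1 called gene of 45 autophagy and mTORC1 genes, at 42.5 RPKM for THP-1, 21.5 for MonoMac-1, 3.82 for HL60 and 1.72 for KG1a, and of that list 10 were higher and 7 lower (49 listed).

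Of 16 measured BCL2 family genes 7 were higher, 1 lower and 0 called (20 listed, median 0.42). BCL2 stood at 30.7 RPKM for THP-1, 28.6 for MonoMac-1, 6.7 for HL60 and 11.1 for KG1a, and BIK, a proapoptotic member, at 23.7 and 20.3 against 7.47 and 0.199. MCL1 was higher by a small margin, at 80.2 and 68.6 against 52.6 and 29.3, and BCL2A1 was lower at 0.06099 and 1.18 against 4.01 and 3.29. Ion channels gave 20 higher, 7 lower and 2 called of 58 measured (170 listed, and 48 higher and 17 lower without a filter). TRPM4, a calcium-activated cation channel, was at 10.4 and 18.1 against 0.308 and 0.0803 and KCNN2, a calcium-activated potassium channel, at 18.8 and 18.3 against 1.91 and 0. KCNN4, its relative in blood cells, was lower at 16.8 and 17.3 against 27.2 and 27.4. Adhesion and purinergic receptors had 7 higher, 10 lower and 2 called of 31 measured (49 listed). The called genes were the adhesion receptors LPHN2 (56.2 and 44.3 against 0.00178 and 0) and GPR124 (61.4 and 54.9 against 1.46 and 0.218), whereas CD97, another of the class, was lower at 26.4 and 22.3 against 50.8 and 102.

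Further pathways held 0 called genes. Respiratory chain and ATP synthase genes had 20 higher, 6 lower (4 after removal of the KG1a share) and 0 called of 82 measured (90 listed), with a median of 0.20 that became -0.05 without MonoMac-1. CYC1, a cytochrome of complex III, was at 199 and 220.5 against 79.1 and 93.7. Cholesterol synthesis gave 3 higher and 4 lower of 27 measured (28 listed), with DHCR7 at 23.7 and 138 against 161 and 146. Polycomb and H3K27 enzymes gave 5 higher and 9 lower of 32 measured (33 listed), with CBX2 at 4.13 and 0.242 against 7.16 and 45.9. DNA methylation genes gave 4 higher and 5 lower of 18 measured (20 listed), a balance that turned to 6 higher and 3 lower after removal of the KG1a share, with DNMT3B at 2.23 and 3.46 against 4.74 and 56.4 and IDH1 at 51.5 and 90.2 against 34.7 and 16.1. TGF-beta and BMP genes gave 11 higher, 3 lower and 0 called of 40 measured (68 listed). TGFB1, the ligand, was lower at 27.5 and 44.4 against 64.4 and 154, and ID2, a target, was higher at 28.6 and 62.1 against 14.3 and 12.3.

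Grouping symbols by their shared stem gave 205 families with at least 8 measured members, and 5 of them had at least 3 genes called in 1 direction. Of 63 CD symbols 5 were called higher and 3 lower. Of 203 solute carriers (SLC) 3 were called higher and 1 lower, of 182 FAM symbols 3 and 1, of 20 HLA symbols 3 and 0, and of 8 MT symbols 3 and 0. For the CD, SLC and FAM stems these counts are small shares of large families. By any margin the highest shares were in MT (62.5% of 8 higher) and COL (8 of 13), and on the lower side PDCD (5 of 9), MCM (5 of 11, and 4 after removal of the KG1a share) and SNHG (5 of 11), against 22.1% and 19.6% of all genes. Median levels in HL60 and KG1a were 0.157 and 0 RPKM for MT and 0.751 and 0.0319 for COL. The MT and COL shares thus rest in part on genes measured only because a monocytic line raised them, and shares of stems without a filter were not computed. HLA genes were higher in 10 of 20 and sorting nexins (SNX), which shape endosomal membranes, in 14 of 27.

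Called genes also lay next to one another on the chromosomes. With the measured genes in order, 16 runs of neighbouring called genes held 35 genes, all of them higher. The runs of 3 were S100A9, S100A12 and S100A8 within 33.3 kb of chromosome 1 (153330330 to 153363664, hg19), MS4A6A, MS4A4A and MS4A7 within 224 kb of chromosome 11, and the metallothioneins on chromosome 16. Pairs included ELANE and CFD on chromosome 19 (852291 to 863610), G0S2 and HSD11B1 on chromosome 1, ECM1 and ADAMTSL4 on chromosome 1, CCR1 and CCR2 on chromosome 3, and F13A1 and LY86 on chromosome 6. TIFAB and C5orf20, within 8.19 kb of chromosome 5, were nearly silent outside the monocytic lines, at 15.9 and 34.9 against 0.0159 and 0.04999 for TIFAB and at 13.4 and 24.8 against 0 and 0.00713 for C5orf20. MS4A6A, a tetraspan protein of monocytes, was at 95.1 RPKM for THP-1, 79.8 for MonoMac-1, 1.92 for HL60 and 0.0109 for KG1a, MS4A7 at 29.7 and 21.2 against 1.12 and 2.51 and MS4A4A at 5.78 and 5.59 against 0.0662 and 0. HSD11B1, which activates cortisol, stood at 33.1 and 6.53 against 0.0137 and 0, and G0S2, an inhibitor of fat breakdown, at 8.68 and 14.3 against 0 and 0. The genes of a run share their position, and those of the S100, MS4A, MT1 and CCR runs belong to 1 family each, so they are not independent observations.

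Leading calls outside the lists added further functions. PLD4, an endolysosomal nuclease, was at 203 RPKM for THP-1, 89.3 for MonoMac-1, 2.71 for HL60 and 0.0348 for KG1a. ZNF521, a zinc finger factor of progenitors, was at 32.5 and 31.8 against 0.0752 and 0.1803, and NCAM2, an adhesion molecule best known from neurons, at 35.6 and 23.8 against 0.0325 and 0.106. Among the lower genes LSP1, an actin-binding protein of leukocytes, was at 30.3 RPKM for HL60, 165 for KG1a, 2.27 for MonoMac-1 and 3.64 for THP-1, and CYFIP2, a regulator of actin branching, at 1.698 and 1.59 against 20.98 and 17.1. ABLIM1, another actin-binding protein, was near absent from the monocytic lines, at 0.00173 and 0.00533 against 8.13 and 9.84.

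A test over lines was run with limma on all measured genes, with the line as the unit and 2 residual degrees of freedom. At an adjusted p of 0.05 (Benjamini-Hochberg, 2-sided) 0 genes were called higher and 0 lower, with a lowest adjusted p of 0.0724, and 767 and 342 passed the same threshold unadjusted. With the filter raised to 5 RPKM, 9990 genes were tested and 10 were called higher and 1 lower. Pair differences with their standard errors were 5.27 ± 0.41 for NAPSB, 4.03 ± 0.65 for CTSH, 5.54 ± 0.93 for CST3, 4.73 ± 0.42 for MMP14, 6.04 ± 0.37 for FCGRT and -2.03 ± 0.33 for ALDH18A1. These genes were named for their gaps in the same 4 libraries, so the standard errors are not independent support. None of them passed the adjusted threshold over all measured genes. The spread behind these p-values is that of unlike lines, not of repeat cultures, so the counts and levels above describe these 4 libraries.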

How the data were processed

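RNA-seq of 4 human leukemia cell lines used TRIzol extraction and Illumina library preparation, per the labels' protocols. CASAVA 1.8.2 and the genome build hg19 are named in the submitters' processing notes, while an aligner, an annotation, the use of strand and a rule for reads shared by gene copies or overlapping genes are not given in these sources. Each file the authors deposited lists 21893 entries with RPKM values and a coverage signal, read here as the sum of sequenced bases on a gene. Of entries with the same symbol only the 1 with the highest mean RPKM was kept, which left 21865 symbols (28 were listed more than once). Values were taken as log2(RPKM + 1), and genes under 1 RPKM in every line were left out, which left 12976. A gap of 2 was the call. limma 3.58.1 in R 4.3.3 (linear model, trend, 2-sided, Benjamini-Hochberg) tested the pair difference and was tested on simulated data. There are no replicate libraries, so p-values measure only the spread between lines.

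The comparison, the 63 gene lists and the named genes were chosen with earlier results of these data known. Named were the 25 largest gaps in each direction, called members of each list with up to 6 uncalled ones by level or pair difference, members of called symbol families and neighbouring runs, and markers. Alternatives were another pseudocount, 2 filters, 2 scalings, removal of the KG1a share, other gaps and leaving out each line. Promoter sequences were taken from RefSeq tables (GRCh38.p14) and matched by symbol. A few genes and 1 of the lists are not reported here.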

Additional observations from a re-analysis of the deposited data

How the results depend on the processing

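The number of called genes depended on the pseudocount, the gap and the lines used. There were 435 higher and 141 lower genes with a pseudocount of 0.1, 568 and 205 with a gap of at least 1, and 66 and 11 with a gap of at least 3. Leaving out 1 line in turn gave 317 to 560 higher and 98 to 486 lower, and a rise is built into the gap. Both counts were highest without HL60, and the cause of that was not tested. Filters of 5 RPKM or none gave 176 and 181 higher and 42 and 43 lower, quantile normalization 150 and 52, median-of-ratios scaling 173 and 44, and removal of the KG1a share 181 and 34. limma called 10 higher and 1 lower with the filter of 5 RPKM and 0 in either direction under the other 9 alternatives run for it. Of the 63 list medians 28 changed sign under at least 1 alternative, most of them medians near 0. No called gene among the 755 named genes checked reversed. Leaving out a line or changing the pseudocount, filter or gap cannot reverse a call by construction. Removal of the KG1a share lowers HL60 only, so it can cancel a lower call but not reverse one. The median-of-ratios factors, from -0.014 for HL60 to 0.062 for MonoMac-1 on the log2 scale, are too small to reverse a gap of 2. Only quantile normalization could in principle have shown a reversal. Each line has 1 library, so culture-to-culture variation is unknown, and with 2 residual degrees of freedom few differences can pass a test across genes. No paired analysis was possible because the labels give no replicate numbers and each line has 1 library.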

Other observations

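Complement genes held members on both sides. Of 22 measured genes 6 were higher, 4 lower (2 after removal of the KG1a share) and 2 called higher (41 listed, median pair difference -0.02, against 22.1% higher and 19.6% lower over all genes). The called genes were CFD, factor D of the alternative pathway, at 227 RPKM for THP-1, 238 for MonoMac-1, 17.96 for HL60 and 1.55 for KG1a, and C2, a protease of the classical pathway, at 5.41 and 16.5 against 0.136 and 0.0548. CFP, which encodes properdin, a stabilizer of the alternative pathway, was higher at 6.53 and 7.09 against 1.62 and 0.979, and so was C3, the central component, at 7.17 and 1.06 against 0.489 and 0.271. The inhibitor gene CFI (0 and 0 against 0.186 and 9.36) was on the lower side and nearly limited to KG1a, with an HL60 value close to the KG1a share.

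Enzymes of cyclic AMP turnover gave 5 higher and 2 lower (1 after removal of the KG1a share) of 19 measured genes (35 listed). ADCY9, an adenylate cyclase, was at 28.8 and 14.2 against 3.93 and 0.0318, and PDE3B, a phosphodiesterase, at 26.2 and 27.1 against 9.598 and 0.0215, so that KG1a lacked both and HL60 was intermediate. The phospholipase C, diacylglycerol kinase and protein kinase C list gave 5 higher, 3 lower (2 after removal of the KG1a share) and 1 called lower of 26 measured (37 listed). In it PRKCD, a protein kinase C, was higher at 99.9 and 70.5 against 50.6 and 0.0288. Of 10 measured RGS genes, which switch off G proteins, 2 were higher and 3 lower (23 listed), with RGS10 at 19.97 and 9.06 against 38.1 and 90.5.

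Detoxifying enzymes differed member by member. Of 20 measured aldehyde dehydrogenases and aldo-keto reductases 6 were higher, 3 lower and 0 called (31 listed). AKR1B1, aldose reductase, was at 53.04 and 79.1 against 0.845 and 29.95, and here HL60 was the low line rather than KG1a. AKR1A1, a related reductase, was lower at 49.4 and 46.9 against 79.2 and 163. Of 13 measured glutathione transferases 4 were higher, 2 lower and 0 called (22 listed). MGST3 was at 105 and 136 against 35.6 and 53.4 and GSTO1, which was lower, at 23.7 and 21.7 against 64.9 and 49.2. Of 6 measured GIMAP GTPases, known from lymphocytes, 1 was higher and 1 lower, the latter 0 after removal of the KG1a share (7 listed), with GIMAP7 a KG1a transcript at 0.0234 and 0 against 0.322 and 13.9.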
